A study of Mus musculus with 6 samples.

Results

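Wnt proteins are secreted, lipid-modified growth factors that signal between neighbouring cells, and in the kidney they take part in the branching of the ureteric bud, the growth of tubules and the repair of injured epithelium. A Wnt binds a Frizzled receptor on the receiving cell together with an LRP co-receptor, which stops the Axin, APC and GSK3 complex from destroying β-catenin, and β-catenin then enters the nucleus and works with TCF/LEF factors on target genes. Secreted proteins of the Sfrp and Dkk families restrain the pathway outside the cell, the first by binding Wnts or Frizzleds and the second mainly by binding the LRP co-receptors. In some settings Wnts act instead through planar cell polarity, which orients cells within an epithelium and involves Frizzleds but not β-catenin. The set described here holds the Wnt ligands, the Frizzled receptors, Sfrp1 to Sfrp5, Dkk1 to Dkk4, Axin1, Axin2, Lef1, Tcf7, Tcf7l1 and Tcf7l2, chosen by symbol and not by any measured value. It has 43 genes among the 55367 gene symbols of each library: 19 Wnt ligands, 10 Frizzled receptors, 8 secreted inhibitors and 6 Axin and TCF/LEF genes. No gene carries the symbol Sfrp3, whose protein is encoded by *Frzb*, given below among the other pathway genes.

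RNA-seq was carried out on polyA RNA of kidney cells enriched with DBA, a plant lectin that binds collecting duct epithelium, from mice at Day115. The 3 groups, with 2 libraries each, were saline-treated WT mice, saline-treated ADPKD mice and ADPKD mice given MMPP. ADPKD mice, a model of autosomal dominant polycystic kidney disease, had both copies of *Pkd1* deleted by tamoxifen in male Pkd1 fl/fl;Cre/Esr1+ animals, in which Cre works wherever the tamoxifen-dependent enzyme is made and not in the collecting duct alone. MMPP, a melanin-like nanoparticle that scavenges reactive oxygen species, was injected intravenously every 4 days from day 55. The labels do not say whether the 2 libraries of a group came from separate animals, so the p-values measure the spread between these libraries, which may be technical.

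*Pkd1* was at 17.7 and 17.2 FPKM (fragments mapped to a gene, scaled to its length and to the size of the library) in WT, 7.64 and 8.91 in ADPKD and 4.34 and 3.99 in ADPKD+MMPP, so the ADPKD libraries lay below WT as the labels require. The principal cell marker *Aqp2*, the water channel of the collecting duct, was at 677 FPKM or more in every library, but markers of other cell types were present and moved with the groups. The summed FPKM of 7 podocyte markers was 932 to 1281 in WT and 92.9 to 213 in ADPKD, that of 12 intercalated cell markers 512 to 519 and 85.3 to 149, that of 9 endothelial markers 906 to 1070 and 571 to 575, that of 10 macrophage markers 86.5 to 88.9 and 534 to 650, and that of 13 fibroblast and mural cell markers 166 to 195 and 229 to 249. In ADPKD+MMPP, the sum of 14 proximal tubule markers was 21707 to 22883, against 566 to 784 in WT and 1423 to 1985 in ADPKD. Most of that sum was *Kap*, at 12822 and 12116 FPKM, and *Gpx3*, at 8789 and 8321. Of the 14 markers, 12 lay above ADPKD and 1 below. The sum of 12 principal cell markers was 5563 to 5584 in ADPKD+MMPP, 2124 to 2825 in WT and 993 to 2543 in ADPKD. Of these 12, 5 lay above ADPKD and 3 below. The RNA is of a mixed population, so fewer cells of a type and less RNA per cell cannot be told apart for any gene below. The ADPKD+MMPP libraries also differed in how their values were made: the depth recovered from the steps in the values was 11.8 and 10.9 M reads, against 30.6 to 33.1 M in the others, and odd read numbers made up 7.30% and 7.78% of low values, against 35.5% to 37.5%. This difference and the treatment cannot be told apart.

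The promoters of 4 genes that changed strongly in ADPKD show the sequence surroundings of these changes. *Wnt7a* and *Wnt9a* are ligands that were at 0 or under 1 FPKM in WT and rose, and *Dkk2* and *Sfrp2* are inhibitors that were among the highest genes of the set in WT and fell. Each run is the 250 bases before the RefSeq transcription start (GRCm38.p6), read 5′ to 3′ on the strand of the gene, with each CpG in capitals. They lie at chr6:91411354-91411603 on the minus strand, chr11:59306680-59306929, chr3:132085042-132085291 and chr3:83766071-83766320 on the plus strand.
Wnt7a: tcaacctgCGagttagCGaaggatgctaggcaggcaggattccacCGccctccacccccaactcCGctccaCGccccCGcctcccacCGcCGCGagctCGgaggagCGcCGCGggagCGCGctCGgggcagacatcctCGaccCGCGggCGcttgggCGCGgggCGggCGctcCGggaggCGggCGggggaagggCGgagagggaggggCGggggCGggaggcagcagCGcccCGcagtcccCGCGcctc
Wnt9a: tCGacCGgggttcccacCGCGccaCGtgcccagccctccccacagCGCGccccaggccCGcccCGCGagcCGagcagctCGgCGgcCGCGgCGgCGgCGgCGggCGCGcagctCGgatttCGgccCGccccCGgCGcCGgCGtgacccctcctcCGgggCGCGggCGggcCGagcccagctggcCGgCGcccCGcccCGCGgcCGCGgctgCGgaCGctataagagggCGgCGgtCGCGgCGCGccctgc
Dkk2: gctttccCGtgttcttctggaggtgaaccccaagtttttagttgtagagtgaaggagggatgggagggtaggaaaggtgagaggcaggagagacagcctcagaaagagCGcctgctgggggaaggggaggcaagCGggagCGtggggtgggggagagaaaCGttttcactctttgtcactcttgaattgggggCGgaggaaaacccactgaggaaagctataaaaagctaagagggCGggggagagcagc
Sfrp2: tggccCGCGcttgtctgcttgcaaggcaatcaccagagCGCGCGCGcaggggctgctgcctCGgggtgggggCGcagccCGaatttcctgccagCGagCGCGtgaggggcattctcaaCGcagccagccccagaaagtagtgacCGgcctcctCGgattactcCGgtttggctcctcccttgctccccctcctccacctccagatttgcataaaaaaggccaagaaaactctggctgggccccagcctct
The promoters of both ligands were dense in CpG, with 34 for *Wnt7a* and 48 for *Wnt9a*, and those of both inhibitors were less so, with 7 for *Dkk2* and 16 for *Sfrp2*. GC content was 77.6%, 84.4%, 55.6% and 63.6% in the same order, against a median of 52.4% over all RefSeq promoters and 67.4% over the 38 at hand for the set, so both inhibitors lay below the median of the set. The promoter of *Fzd1*, a receptor that also rose, had 12 CpG and a GC content of 51.2%. The promoter of *Wnt5b* printed below, of another ligand that rose, had 7 CpG, as many as that of *Dkk2*, so the contrast does not hold for all ligands. The 4 promoters printed above were picked for the changes of their genes, so the contrast is a description.

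RefSeq promoters were at hand for 30 of the 43 genes, 38 promoters in all. They were searched on both strands for the TCF/LEF word CTTTG followed by 2 letters that are each A or T, which 6 of the 38 promoters held (15.8%), against 14.8% of all 32851 promoters. The 2 matches of *Dkk1*, an inhibitor known as a target of β-catenin in other tissues, and that of 1 of the 3 *Wnt5b* promoters are in capitals below. The runs are chr19:30549497-30549746 and chr6:119449387-119449636, both on the minus strand.
Dkk1: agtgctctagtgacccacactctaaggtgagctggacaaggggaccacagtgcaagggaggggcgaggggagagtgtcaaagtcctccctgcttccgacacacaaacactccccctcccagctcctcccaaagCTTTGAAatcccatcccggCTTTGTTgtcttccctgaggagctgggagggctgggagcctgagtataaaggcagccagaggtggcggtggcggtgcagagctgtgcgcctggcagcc
Wnt5b: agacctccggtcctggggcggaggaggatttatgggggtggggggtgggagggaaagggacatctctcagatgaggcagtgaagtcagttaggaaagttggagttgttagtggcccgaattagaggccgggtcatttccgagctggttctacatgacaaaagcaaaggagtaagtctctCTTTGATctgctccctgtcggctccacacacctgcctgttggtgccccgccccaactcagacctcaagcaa
The *Dkk1* words began 117 and 98 bases before the start, and the *Wnt5b* word 71 bases before it. The other matches were in promoters of *Fzd7*, *Lef1*, *Tcf7l2* and *Wnt11*, 1 each. *Axin2* held none in its 250 bases, which says only that these letters are not in this window. A match is a run of letters and not a bound site.

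Of the 43 genes, 27 reached 1 FPKM in 2 or more libraries and were tested: 9 Wnt ligands, 8 Frizzleds, 5 inhibitors and 5 Axin and TCF/LEF genes. *Wnt10a*, *Wnt2*, *Wnt7a*, *Wnt9a* and *Fzd3* were under 1 FPKM in both WT libraries and passed only through the other groups, and 17 genes were at 1 FPKM or more in all 6 libraries. The other 16 genes stayed low. *Wnt3a* was listed at 0 in all 6 libraries, *Wnt1*, *Wnt2b*, *Wnt3*, *Wnt5a*, *Wnt6*, *Wnt8a*, *Wnt8b*, *Wnt10b* and *Wnt16* reached at most 0.991 FPKM, and *Fzd9* and *Fzd10* at most 1.24. Of the low inhibitors, *Dkk1*, *Dkk4* and *Sfrp4* reached at most 0.604 FPKM, and *Lef1*, the TCF/LEF factor induced in many Wnt-responding tissues, at most 0.238.

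**Figure D1:**
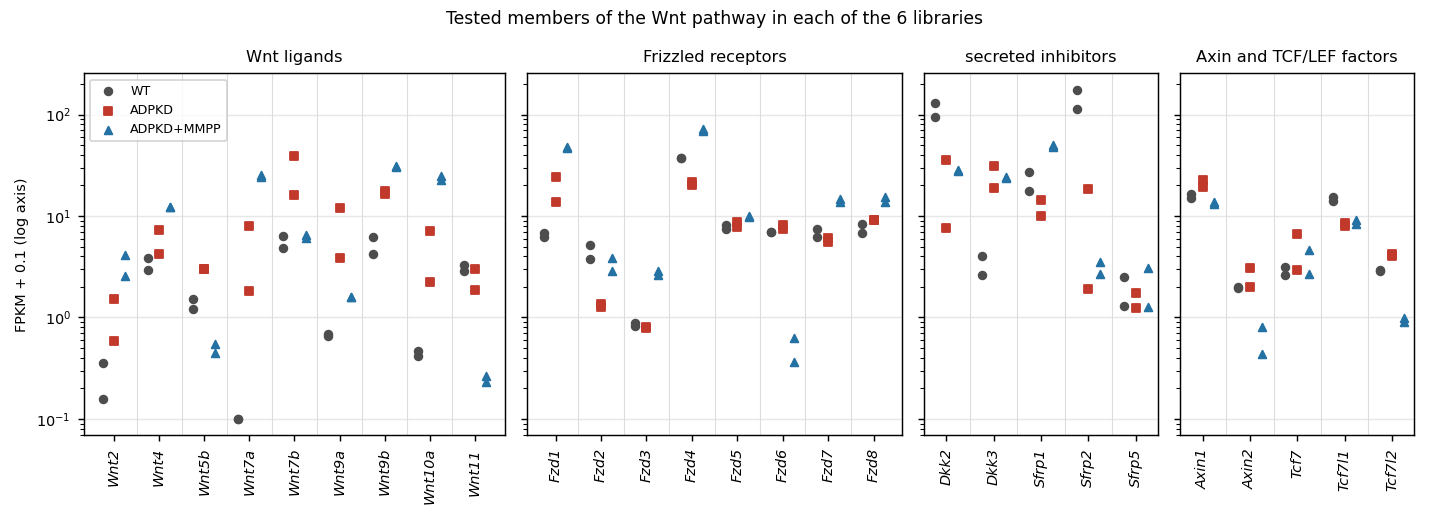
FPKM + 0.1 on a log axis (y) for the 27 tested genes (x), grouped by role, with 1 point for each library of WT (grey circles), ADPKD (red squares) and ADPKD+MMPP (blue triangles). *Wnt7a* is listed at 0 in both WT libraries and reaches 25.4 FPKM in ADPKD+MMPP, while *Sfrp2* runs from 176 FPKM in WT down to 1.81 in ADPKD.

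The first comparison, ADPKD against WT, asks how the pathway stood in cystic epithelium without treatment. Of the 9 tested ligands, 6 rose and none fell, while 3 of 5 tested secreted inhibitors fell and 1 rose. Among the 8 tested Frizzleds 1 rose and 2 fell, and *Tcf7l1* was the only one of the 5 tested Axin and TCF/LEF genes that changed. A change was called from 1.5-fold upwards with an unadjusted P under 0.05 in limma on log2(FPKM + 1), the thresholds of the study. In all, 8 of the 27 tested genes were called higher and 6 lower (51.9%), against 26.7% of the 14862 genes tested (14.2% higher and 12.5% lower). *Wnt7a*, *Wnt9a* and *Wnt10a*, 3 of the 6 ligands that rose, were under 1 FPKM in both WT libraries and could enter the test only by being higher elsewhere. Without the 5 genes of that kind, 3 of 5 ligands rose, and 5 of 22 genes of the set were called higher and 6 lower (50%), against 23.8% of all genes that reached 1 FPKM in both groups. Of the 14 calls, 13 had a Benjamini-Hochberg adjusted p under 0.05, while 22.5% of all genes met the fold change at that adjusted p. Non-overlapping libraries were seen for 14 genes of the set that were higher and 8 that were lower (67% of all genes did not overlap, 35.5% higher and 31.5% lower). On the log2 scale, the 27 genes had a median change of 0.25, and all genes tested one of 0.027.

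*Wnt9b*, which is made by the collecting duct and signals to its surroundings during kidney development, was at 6.14 and 4.13 FPKM in WT, 17.5 and 16.5 in ADPKD and 30.7 and 30.3 in ADPKD+MMPP. *Wnt7b*, which the collecting duct uses to shape the renal medulla, was at 4.75 and 6.20 FPKM in WT, 16.0 and 39.0 in ADPKD and 6.38 and 5.93 in ADPKD+MMPP. For both ligands, each ADPKD library lay above each WT library, and *Wnt7b* differed between the ADPKD libraries more than *Wnt9b* did. All 6 libraries were fitted together in limma, so each SE and p here and below rests on the spread within all 3 groups, ADPKD+MMPP included. In limma, the log2 fold change was 1.57 ± 0.18 (SE, n = 2 libraries per group) for *Wnt9b*, with an adjusted p of 0.00471. It was 2.02 ± 0.39 for *Wnt7b*, with an adjusted p of 0.0174.

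*Wnt7a*, a ligand of nervous system and female reproductive tract development, was listed at 0 in both WT libraries and was at 1.72 and 7.81 FPKM in ADPKD and 24.4 and 25.4 in ADPKD+MMPP. These values correspond to 0 and 0, 180 and 794, and 914 and 880 reads. In the WT libraries, 3 reads would have been 0.0309 and 0.0306 FPKM, so no fold against WT is given. The log2 difference between ADPKD and WT was 2.29 with a pseudocount of 1 (limma, adjusted p = 0.0262) and 5.24 with a pseudocount of 0.1, which shows how far it rests on that choice. *Wnt10a*, known from skin, hair and tooth development, was at 0.371 and 0.314 FPKM in WT, 2.14 and 6.94 in ADPKD and 24.9 and 22.4 in ADPKD+MMPP. Its libraries did not overlap between any 2 groups, and the rise in ADPKD was 1.90 ± 0.41 on the log2 scale (SE, limma, adjusted p = 0.0240).

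*Wnt9a*, a ligand with roles in joint and skeletal development, was at 0.560 and 0.592 FPKM in WT, 3.76 and 12.0 in ADPKD and 1.48 and 1.49 in ADPKD+MMPP. The higher ADPKD library had more than 3 times the value of the other, and both lay above every library of WT and ADPKD+MMPP. The rise in ADPKD was 2.32 ± 0.44 (SE, limma, adjusted p = 0.0164). *Wnt5b*, a ligand that mostly signals without β-catenin, was at 1.12 and 1.42 FPKM in WT, 2.89 and 2.93 in ADPKD and 0.447 and 0.345 in ADPKD+MMPP. The ADPKD libraries agreed closely and stood above WT, by 0.79 ± 0.13 on the log2 scale (SE, limma, adjusted p = 0.0102), which is under a fold change of 2.

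The other 3 tested ligands did not pass the test as set. *Wnt4*, which drives nephron formation and is made again in injured kidney, was at 2.87 and 3.79 FPKM in WT, 4.14 and 7.16 in ADPKD and 12.1 and 12.2 in ADPKD+MMPP. *Wnt2*, a ligand of lung and vascular development, was at 0.0580 and 0.258 FPKM in WT, 0.483 and 1.41 in ADPKD and 2.48 and 3.98 in ADPKD+MMPP. For both, ADPKD lay above WT without overlap, but the 95% intervals of the log2 difference were -0.015 to 1.19 for *Wnt4* and -0.0072 to 1.43 for *Wnt2*. Without ADPKD replicate 1, both were called higher, by 0.92 and 1.06, and *Wnt2* was also called higher with a pseudocount of 0.1 (1.98). *Wnt11*, which the tips of the branching ureteric bud make, was at 2.76 and 3.23 FPKM in WT, 1.75 and 2.87 in ADPKD and 0.164 and 0.133 in ADPKD+MMPP. Its WT and ADPKD libraries overlapped.

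Summed over all 19 ligands, the FPKM was 19.7 and 21.1 in WT, 52.3 and 100.02 in ADPKD and 106 and 105 in ADPKD+MMPP. The make-up of this sum differed as well. In WT, *Wnt9b* and *Wnt7b* together with *Wnt4* and *Wnt11* gave most of it: *Wnt11* held 14.0% and 15.3% and *Wnt7a* none. In ADPKD the largest shares were those of *Wnt9b* (33.4%) in replicate 1 and *Wnt7b* (39.0%) in replicate 2, with *Wnt9a* at 7.19% and 12.0%. In ADPKD+MMPP, *Wnt9b* held 29.0% in both libraries, *Wnt7a* 23.1% and 24.3%, and *Wnt10a* 23.5% and 21.4%. FPKM is per length of gene. The sum and shares of ADPKD+MMPP are of values as deposited, and the direction of *Wnt9b*, *Wnt9a*, *Wnt4*, *Wnt5b* and *Wnt2* in these libraries depends on the scaling, as given below, so their make-up is not to be read against that of the other groups.

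Several ligands with high values sit next to another Wnt gene that was low. *Wnt10a* lies 6.19 kb from *Wnt6* on chromosome 1, *Wnt9a* 16.2 kb from *Wnt3a* and *Wnt9b* 24.3 kb from *Wnt3* on chromosome 11. *Wnt6* was at 0.541 FPKM or less in every library, *Wnt3* at 0.0406 or less, and *Wnt3a* at 0. Each of the 3 partners therefore stayed under 1 FPKM while its neighbour reached 12.0 FPKM or more. In the remaining pair, *Wnt10b* and *Wnt1* on chromosome 15, 11.7 kb apart, neither reached 1 FPKM, although *Wnt10b* was at 0.0192 and 0.0760 FPKM in WT and 0.427 and 0.991 in ADPKD, which are 2, 8, 48 and 108 reads. *Wnt5a*, the best known ligand of planar polarity and also under the filter, was at 0.205 and 0.264 FPKM in WT and 0.812 and 0.813 in ADPKD, from 49, 64, 210 and 204 reads. Both ADPKD libraries of these 2 ligands lay above both WT libraries.

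**Figure D2:**
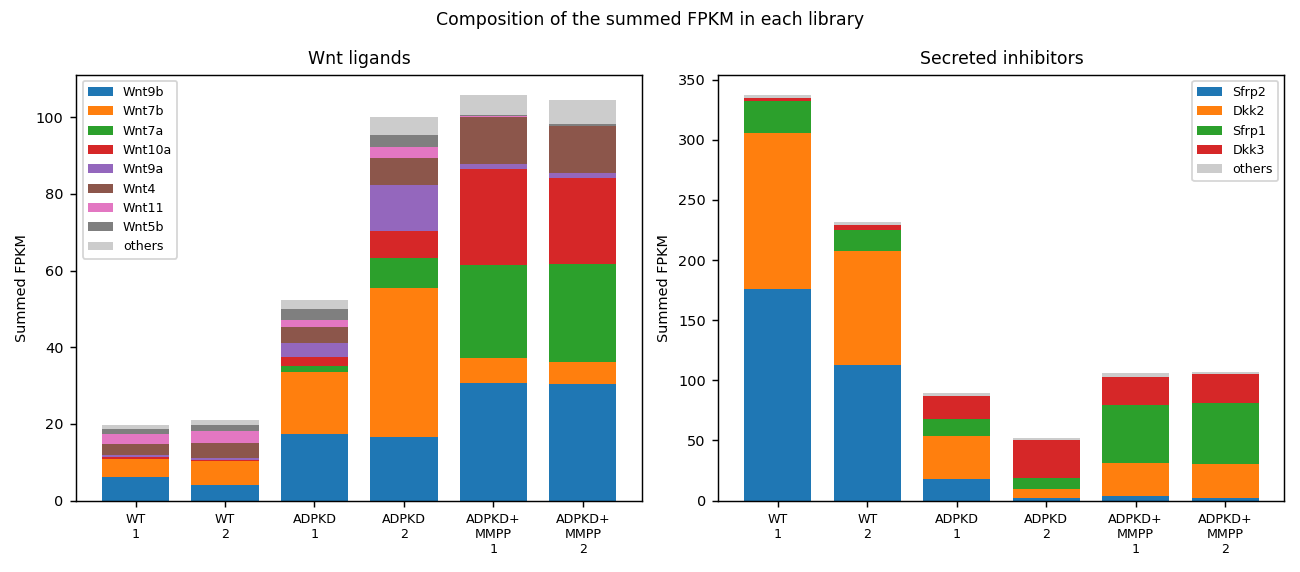
Summed FPKM (y) of the 19 Wnt ligands (left) and the 8 secreted inhibitors (right) in each of the 6 libraries (x), stacked by gene, with the remaining genes of each group in grey and the values as deposited. The ligand sum is 19.7 and 21.1 in WT and 52.3 or more elsewhere, and the inhibitor sum falls from 337 and 232 in WT to 89.3 and 52.3 in ADPKD.

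The secreted inhibitors were, in sum, the most abundant group of the set in WT, with 337 and 232 FPKM, and dropped to 89.3 and 52.3 in ADPKD. *Sfrp2*, a Wnt-binding protein, was at 176 and 113 FPKM in WT, 18.2 and 1.81 in ADPKD and 3.42 and 2.55 in ADPKD+MMPP. *Dkk2*, which binds the LRP co-receptors, was at 130.1 and 94.4 FPKM in WT, 35.6 and 7.47 in ADPKD and 27.8 and 28.2 in ADPKD+MMPP. Every ADPKD library of both genes lay below every WT library, and ADPKD replicate 2 was far below replicate 1. The log2 fold change was -4.27 ± 0.86 for *Sfrp2* (SE, limma, adjusted p = 0.0190) and -2.67 ± 0.65 for *Dkk2* (adjusted p = 0.0330). *Sfrp1*, a relative of *Sfrp2*, was at 26.8 and 17.7 FPKM in WT, 14.3 and 9.90 in ADPKD and 48.0 and 50.4 in ADPKD+MMPP. Its fall in ADPKD, -0.82 ± 0.25, was called by the thresholds of the study but had an adjusted p of 0.0596 in limma, and it was not called without WT replicate 1 (-0.54) or without ADPKD replicate 2 (-0.58).

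*Dkk3*, a divergent Dkk that does not bind the LRP co-receptors in the way of the others, went the other way. It was at 2.54 and 3.89 FPKM in WT, 18.8 and 31.2 in ADPKD and 23.8 and 23.9 in ADPKD+MMPP, and its lowest ADPKD library was several times its highest WT library. The rise was 2.60 ± 0.27 on the log2 scale (SE, limma, adjusted p = 0.00404). *Sfrp5* was at 1.19 and 2.40 FPKM in WT and 1.64 and 1.15 in ADPKD, which overlap. Below the filter, *Dkk4* had 24 and 13 reads in WT and 6 and 2 in ADPKD, *Dkk1* had 32 and 31 reads in WT and 20 and 9 in ADPKD, and *Sfrp4* had 2 and 2 reads in WT and 49 and 80 in ADPKD. The fall of *Sfrp2* and *Dkk2* went with a fall of all 7 podocyte markers, all 12 intercalated cell markers and 8 of 9 endothelial markers, and the rise of *Dkk3* with a rise of 8 of 13 fibroblast and mural cell markers and 9 of 10 macrophage markers, while 4 and 1 of these lists lay below WT. The mural cell marker *Pdgfrb* was among the 4, at 91.3 and 65.6 FPKM in WT and 38.9 and 31.4 in ADPKD. The part of these cells in the results was not tested.

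Among the Frizzleds, *Fzd4*, which is also the receptor of the vascular ligand norrin, was the most abundant in WT. It was at 37.5 and 37.5 FPKM in WT, 21.6 and 20.2 in ADPKD and 71.8 and 68.3 in ADPKD+MMPP. *Fzd1*, a receptor of the β-catenin branch, was at 6.73 and 6.15 FPKM in WT, 13.7 and 24.3 in ADPKD and 46.6 and 47.3 in ADPKD+MMPP. *Fzd2*, a receptor that also takes Wnts acting without β-catenin, was at 3.70 and 5.09 FPKM in WT, 1.25 and 1.18 in ADPKD and 3.75 and 2.75 in ADPKD+MMPP. *Fzd4* and *Fzd2* were thus lower in both ADPKD libraries than in either WT library and *Fzd1* was higher, so that *Fzd1* was the highest Frizzled in ADPKD replicate 2. The log2 fold changes were -0.81 ± 0.11 for *Fzd4* (SE, limma, adjusted p = 0.00713), 1.38 ± 0.26 for *Fzd1* (adjusted p = 0.0157) and -1.27 ± 0.19 for *Fzd2* (adjusted p = 0.00778). Endothelial cells are a known site of *Fzd4*, and the endothelial marker *Kdr* was at 161 and 123 FPKM in WT and 44.9 and 20.7 in ADPKD; its part in the change of *Fzd4* was not tested.

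The other 5 tested Frizzleds were not called in ADPKD against WT. *Fzd6*, which acts in planar polarity, was at 6.78 FPKM in both WT libraries and 7.43 and 8.14 in ADPKD. *Fzd7* was at 6.06 and 7.38 FPKM in WT and 6.02 and 5.42 in ADPKD, and *Fzd8* at 8.15 and 6.74 in WT and 9.03 and 8.99 in ADPKD. The differences of these 3 were small beside those of the called genes, with 95% intervals of -0.17 to 0.52, -0.54 to 0.15 and -0.088 to 0.59 on the log2 scale. For *Fzd3*, another planar polarity receptor, the interval was -0.32 to 0.24, and for *Fzd5* it was -0.23 to 0.39. The summed FPKM of the 10 Frizzleds was 77.2 and 79.7 in WT and 68.9 and 77.1 in ADPKD.

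**Figure D3:**
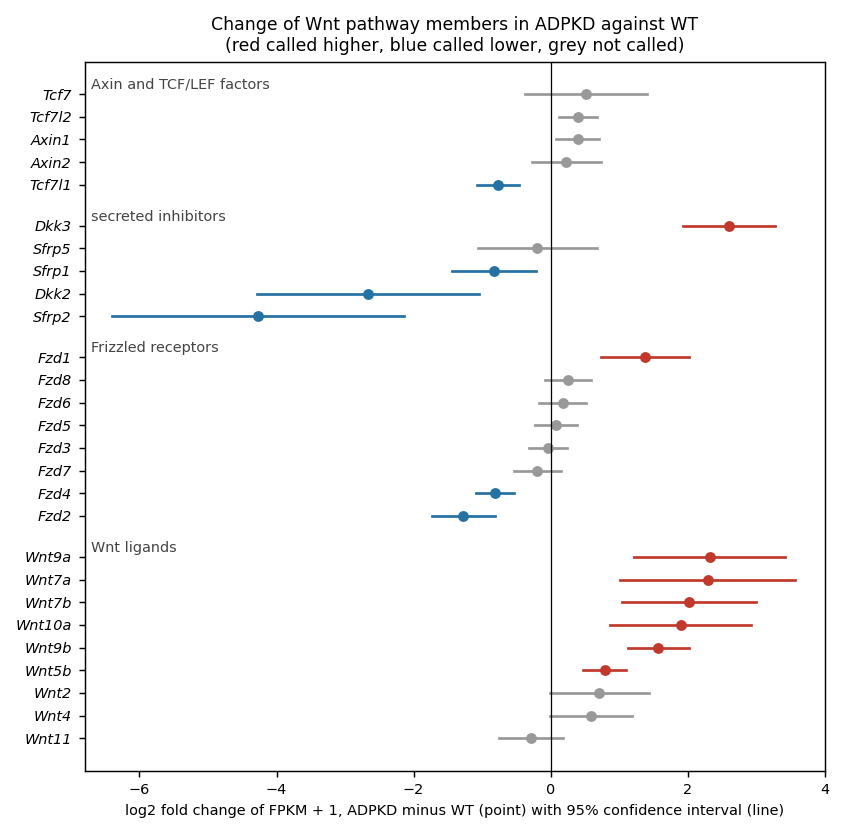
Log2 fold change of FPKM + 1 in ADPKD minus WT (x; point) with its 95% confidence interval from limma (line; 2 libraries per group) for the 27 tested genes (y), grouped by role, with called genes in red (higher) and blue (lower) and the others in grey. The 6 called ligands lie at 0.79 to 2.32, and *Sfrp2* and *Dkk2* at -4.27 and -2.67.

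Inside the cell, *Axin1*, the scaffold of the β-catenin destruction complex, was at 15.0 and 16.3 FPKM in WT, 19.4 and 22.4 in ADPKD and 13.5 and 13.1 in ADPKD+MMPP. *Axin2*, the scaffold that β-catenin itself induces and a common readout of the pathway, was at 1.90 and 1.86 FPKM in WT, 1.89 and 2.96 in ADPKD and 0.708 and 0.333 in ADPKD+MMPP. ADPKD replicate 1 was at the WT level of *Axin2* and replicate 2 above it, and the log2 difference between ADPKD and WT was 0.23, with a 95% interval of -0.27 to 0.73. *Tcf7l1*, mostly a repressor of Wnt targets, was at 14.0 and 15.2 FPKM in WT, 8.49 and 7.87 in ADPKD and 8.24 and 9.04 in ADPKD+MMPP. It fell without overlap in ADPKD, by 0.77 on the log2 scale with an SE of 0.12 (limma, adjusted p = 0.00993). *Tcf7l2*, the main TCF of many epithelia, was at 2.84 and 2.75 FPKM in WT, 3.94 and 4.08 in ADPKD and 0.895 and 0.804 in ADPKD+MMPP. Its difference of 0.40 in ADPKD had an adjusted p of 0.0478 in limma but was under a fold change of 1.5. *Tcf7*, an activator best known from T cells, was at 3.08 and 2.50 FPKM in WT, 2.86 and 6.54 in ADPKD and 4.49 and 2.61 in ADPKD+MMPP, and these overlapped, although without ADPKD replicate 1 it was called higher, by 0.996. The 12 T cell markers summed to at most 7.47 FPKM in any library, and the part of these cells in the level of *Tcf7* was not tested.

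The 2 ADPKD libraries differed in degree for most of the set. ADPKD replicate 2 lay farther from the WT mean than replicate 1 for 22 of the 27 tested genes. The same count was not made over all genes, so it cannot be read as a trait of the set. *Wnt7a*, *Wnt9a*, *Wnt10a* and *Wnt7b* were all higher in replicate 2, and *Sfrp2*, *Dkk2* and *Sfrp1* lower. The intercalated cell marker *Slc26a4*, a chloride and bicarbonate exchanger, also stood farther from WT in replicate 2, at 12.4 FPKM in replicate 1 and 2.15 in replicate 2, against 83.6 and 109 in WT. Without replicate 2, the log2 differences from WT were 1.44 for *Wnt7a*, which rests on the pseudocount of 1, 1.23 for *Wnt10a*, 1.59 for *Wnt9a*, 1.40 for *Wnt7b*, 0.98 for *Fzd1*, -1.61 for *Dkk2* and -2.88 for *Sfrp2*, and without replicate 1 they were 3.14, 2.56, 3.05, 2.64, 1.77, -3.72 and -5.66. Of the 14 calls in ADPKD against WT, 10 remained under each of the 18 other settings and replicate sets tried, namely those of *Wnt7a*, *Wnt7b*, *Wnt9a*, *Wnt9b*, *Wnt10a*, *Dkk2*, *Dkk3*, *Sfrp2*, *Fzd1* and *Fzd2*.

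Other genes of the pathway were read from a list of co-receptors, further inhibitors, the destruction complex, nuclear cofactors and planar polarity genes, of which 81 were in the files and 67 were tested. In ADPKD against WT, 6 of the 67 rose and 17 fell (34.3%, against 26.7% of all genes). By role, 2 of 13 further inhibitors rose and 4 fell, none of 9 secretion, co-receptor and R-spondin genes rose and 3 fell, 3 of 13 planar polarity genes rose and 3 fell, 1 of 15 nuclear cofactors rose and 6 fell, and of 17 destruction complex and Dishevelled genes none rose and 1 fell. The median log2 fold change of the 67 was -0.13.

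The largest falls of the list were again of inhibitors. *Sost*, which encodes sclerostin, an LRP-binding inhibitor best known from bone, was at 22.7 and 19.0 FPKM in WT, 1.51 and 0 in ADPKD and 0.410 and 1.24 in ADPKD+MMPP. *Shisa3*, which retains Frizzleds inside the cell, was at 25.7 and 48.0 FPKM in WT, 5.50 and 1.57 in ADPKD and 1.92 and 1.74 in ADPKD+MMPP. *Wif1*, a secreted Wnt-binding protein, was at 5.01 and 9.82 FPKM in WT, 1.23 and 0.116 in ADPKD and 0 in both ADPKD+MMPP libraries. Each was lower in ADPKD without overlap, with log2 fold changes of -3.78 for *Sost*, -3.14 for *Shisa3* and -2.35 for *Wif1* (limma, adjusted p = 0.00524, 0.00934 and 0.0122). In contrast, *Frzb*, a secreted relative of the Sfrp genes, was at 5.24 and 4.41 FPKM in WT, 13.5 and 34.5 in ADPKD and 22.6 and 26.4 in ADPKD+MMPP. It rose by 1.97 in ADPKD (limma, adjusted p = 0.0208), so the inhibitors did not move as 1 group.

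A list of 20 genes known as β-catenin targets in other tissues held 15 tested genes, of which 5 rose and 3 fell in ADPKD (53.3%, against 26.7% of all genes), and 3 rose and 2 fell at an adjusted p under 0.05. *Cd44*, a surface glycoprotein, was at 2.19 and 1.91 FPKM in WT, 25.7 and 29.7 in ADPKD and 1.0 and 0.947 in ADPKD+MMPP. *Sox9*, a factor of progenitor and injured tubule cells, was at 2.90 and 7.41 FPKM in WT, 34.7 and 64.6 in ADPKD and 56.2 and 57.8 in ADPKD+MMPP. *Myc*, a growth regulator, was at 29.9 and 35.8 FPKM in WT, 75.5 and 91.5 in ADPKD and 0.873 and 1.35 in ADPKD+MMPP. All 3 rose in ADPKD without overlap, by 3.23, 3.08 and 1.32 on the log2 scale (limma, adjusted p = 0.000831, 0.00722 and 0.00700). The targets that fell, named after their values were seen, were *Bambi*, a decoy receptor of the TGF-β family, *Jun*, a subunit of AP-1, and *Kremen1*, a receptor for Dkk proteins. *Bambi* was at 12.1 and 12.6 FPKM in WT and 5.25 and 4.90 in ADPKD, *Jun* at 1544 and 1694 and at 935 and 665, and *Kremen1* at 15.7 and 19.3 and at 9.84 and 12.1. Their log2 fold changes were -1.14, -1.03 and -0.62 (limma, adjusted p = 0.00363, 0.0140 and 0.0518). The cyclin *Ccnd1* was at 27.9 and 26.2 FPKM in WT and 35.2 and 15.4 in ADPKD, and the feedback inhibitor *Nkd1* was at 4.36 and 3.97 in WT and 3.46 and 4.17 in ADPKD. Neither was called, and the WT libraries of both lay within or across the range of ADPKD. *Lgr5*, the R-spondin receptor that marks Wnt-driven stem cells in the gut, stayed below the filter, at 0.0547 to 0.714 FPKM.

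The comparison of ADPKD+MMPP with ADPKD asks how the same genes stood after treatment, and uses the same ADPKD libraries as the first. *Wnt7a*, *Wnt10a*, *Wnt9b*, *Wnt4*, *Wnt2*, *Sfrp1* and 6 Frizzleds were higher in the treated libraries, and *Wnt7b*, *Wnt9a*, *Wnt5b*, *Wnt11*, *Fzd6*, *Axin1*, *Axin2* and *Tcf7l2* were lower, but 9 of these 20 calls turn direction when each library is centred on genes of like transcript structure, as detailed next. The 20 calls among 27 genes (74.1%) stand beside 70.9% of all genes tested (27.9% higher and 43% lower), so the share is near the background. *Axin2*, *Fzd6*, *Tcf7l2*, *Wnt11* and *Wnt5b* were under 1 FPKM in both treated libraries and *Fzd3* in both ADPKD libraries, so these 6 could enter the test only by being higher in another group. Without them, 11 of 21 were higher and 3 lower (66.7%, against 66.6% of all genes that reached 1 FPKM in both groups). Groups did not overlap for 13 genes that were higher and 8 that were lower, against 87.8% of all genes (36.1% higher and 51.7% lower). All genes tested had a median log2 change of -0.36, and the 27 one of 0.29. After centring, the median of the 27 lay under that of all centred genes, as given below. The count of calls among all genes was 4143 higher and 6397 lower, and 5363 higher and 4577 lower after quantile normalization.

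Direction in the treated libraries went with how many transcripts a gene has in the annotation. Of the 12 tested genes with a single annotated transcript, 9 were higher and none lower. Among the 15 with several, 3 were higher and 8 lower. Single-transcript genes made up a larger part of the set than of all protein-coding genes tested, where they were 1309 beside 11066 others. The same split held over all protein-coding genes tested, with 70% of single-transcript genes higher and 6.57% lower, and 25.1% and 46.3% of the others. In ADPKD against WT the corresponding shares were 19.4% and 15.6%, and 13.8% and 11.9%. All 8 genes that were lower had at most 50.8% of their exon bases in exactly 1 transcript, and *Wnt9a*, with 2 transcripts, had 0.601%.

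**Figure D4:**
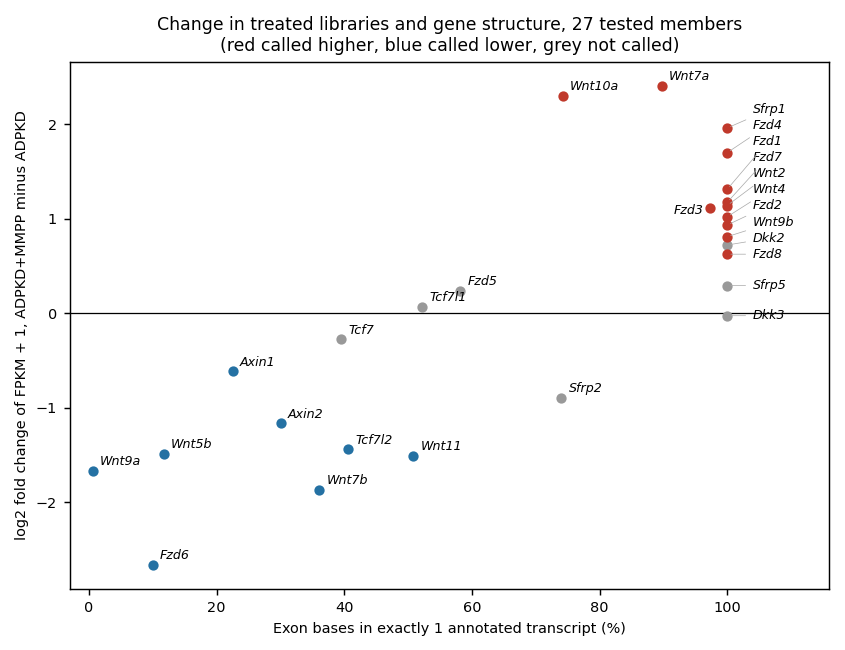
Log2 fold change of FPKM + 1 in ADPKD+MMPP minus ADPKD (y) against the percentage of exon bases that belong to no more than 1 transcript of the annotation (x) for the 27 tested genes, with called genes in red (higher) and blue (lower) and the others in grey. Genes at 100% are called higher or not called, those at 50.8% or less are called lower except *Tcf7*, and 9 of the 20 calls turn direction when libraries are centred by this share.

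Centring was done within 20 bins of that share over protein-coding genes. Of the 20 calls, 5 remained under this and the other 17 alternatives. *Wnt7a* and *Wnt10a* were higher in both treated libraries than in any other library, by 2.41 ± 0.52 and 2.30 ± 0.41 against ADPKD (SE, limma, adjusted p = 0.00658 and 0.00321), and after centring by 1.36 and 1.88. *Sfrp1*, which had fallen in ADPKD, was above both WT libraries after treatment. Its rise against ADPKD was 1.96 ± 0.25 (SE, limma, adjusted p = 0.000767), or 0.79 after centring, and its difference from WT turned from 1.14 to -0.14 after centring. *Fzd6* went from 7.43 and 8.14 FPKM in ADPKD to 0.527 and 0.266, from 1184 and 1258 reads to 30 and 14. *Wnt11* went to 8 and 6 reads. The falls were -2.66 ± 0.14 for *Fzd6* and -1.51 ± 0.19 for *Wnt11* (SE, limma, adjusted p = 4.04e-05 and 0.000752), and -0.72 and -0.85 after centring.

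The remaining receptors shifted together before centring. *Fzd1*, *Fzd3*, *Fzd4* and *Fzd7* were higher in treated than in ADPKD libraries by 1.31, 1.11, 1.70 and 1.17 on the log2 scale (limma, adjusted p = 0.00472, 0.000322, 7.78e-05 and 0.000581), and by 0.15, 0.065, 0.53 and 0.13 after centring, where none was called. *Fzd3* was at 0.690 and 0.702 FPKM in ADPKD and 2.54 and 2.78 in ADPKD+MMPP, *Fzd7* reached 13.6 and 14.6 FPKM, and *Fzd8* 13.7 and 15.2. *Fzd8* and *Fzd2* turned from 0.62 and 0.93 to -0.56 and -0.25 after centring. *Fzd5* was at 8.73 and 7.62 FPKM in ADPKD and 9.92 and 9.70 in ADPKD+MMPP, and was not called as set, but was called higher after centring (0.59).

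Among the ligands, *Wnt7b* fell by 1.87 on the log2 scale with treatment (SE 0.39, limma, adjusted p = 0.00620), to values that overlapped those of WT, and had a difference of -0.68 after centring that was not called. *Wnt9a* and *Wnt5b* turned from -1.67 and -1.49 to 0.44 and 0.45 after centring, and *Wnt9b*, *Wnt4* and *Wnt2* from 0.81, 1.02 and 1.14 to -0.37, -0.15 and -0.027. The direction of these 5 ligands therefore depends on the scaling. Of the nuclear side, *Axin1* turned from -0.61 to 1.04 and *Axin2* from -1.16 to 0.56, and *Tcf7l2* moved from -1.44 to -0.32, no longer called. *Axin2* rested on 46 and 20 reads in the treated libraries, against 344 and 522 in ADPKD at the higher depth given above. *Dkk2*, *Dkk3*, *Sfrp2*, *Sfrp5*, *Tcf7* and *Tcf7l1* overlapped between treated and untreated ADPKD and were not called as set. After centring, *Dkk3* (-1.19) and *Sfrp5* (-0.89) were called lower and *Tcf7l1* (0.72) higher, and *Sfrp5* was called higher after quantile normalization (0.92). Leaving out 1 library changed 5 calls: without ADPKD replicate 1 *Dkk2* was higher (1.78), without ADPKD replicate 2 *Sfrp2* was lower (-2.28) and *Axin1* was not called (-0.51), and without ADPKD+MMPP replicate 2 *Fzd8* and *Wnt2* were not called (0.55 and 0.88).

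Of the 67 other pathway genes, 15 were higher and 32 lower in ADPKD+MMPP than in ADPKD (70.1%, near the 70.9% of all genes). The highest were *Sostdc1*, an inhibitor of Wnt and BMP signals, and *Trabd2b*, a protease that cuts Wnts. *Sostdc1* was at 34.5 and 16.0 FPKM in WT, 32.5 and 8.90 in ADPKD and 145 and 155 in ADPKD+MMPP, and *Trabd2b* at 6.67 and 7.48, 8.22 and 4.13, and 28.5 and 28.9. Both have a single annotated transcript, as does the target *Sp5*, a transcription factor, which was at 2.27 and 1.28 FPKM in ADPKD and 8.39 and 10.4 in ADPKD+MMPP. The log2 fold changes were 3.05, 2.11 and 1.92 (limma, adjusted p = 0.00528, 0.000889 and 0.000407). The lowest of the 67 was *Ctnnb1*, which encodes β-catenin, and 2 targets outside that list, *Myc* and *Cd44*, were also among the lowest. *Ctnnb1* was at 80.1 and 76.7 FPKM in WT, 99.8 and 124 in ADPKD and 4.80 and 4.82 in ADPKD+MMPP. The log2 fold changes were -5.33 for *Myc*, -4.28 for *Ctnnb1* and -3.86 for *Cd44* (limma, adjusted p = 2.21e-05 for each), and these genes have 13.9%, 31.6% and 22.6% of their exon bases in exactly 1 transcript. Next among the 67, and named after their values were seen, were *Fbxw11*, which helps to mark β-catenin for breakdown, and the kinase *Gsk3a*, at -3.79 and -3.62 (limma, adjusted p = 2.01e-05 and 6.38e-05), or -1.68 and -1.98 after centring. *Ccnd1*, with 80.9%, was at 90.0 and 87.5 FPKM in ADPKD+MMPP and rose by 1.88 (limma, adjusted p = 0.00403), and *Nkd1*, with 41.0%, fell by 1.16 (adjusted p = 0.00112). After centring, the differences were 1.87 for *Sostdc1*, 0.94 for *Trabd2b*, 0.75 for *Sp5*, 1.07 for *Ccnd1*, -3.39 for *Myc*, -2.89 for *Ctnnb1* and -2.21 for *Cd44*, all still called, and -0.043 for *Nkd1*, which was not. Of the 15 tested targets, 5 were higher and 3 lower (53.3%, against 70.9% of all genes).

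Against WT, ADPKD+MMPP had 12 of the 27 genes higher and 8 lower (74.1%, against 73.9% of all genes, 30.1% higher and 43.8% lower). The calls among all genes were 4477 higher and 6507 lower, and 5482 higher and 4885 lower after quantile normalization. Genes under 1 FPKM in both WT or both treated libraries could enter the test only by being higher in another group. Without them, 8 of 17 were higher and 3 lower (64.7%, against 69.0% of all genes that reached 1 FPKM in both groups). Across the 18 alternatives, 7 calls of the set remained: *Wnt7a*, *Wnt10a*, *Wnt9b*, *Fzd1* and *Dkk3* were higher than in WT, and *Sfrp2* and *Wnt11* lower. Of these 7, *Wnt7a* and *Wnt10a* were under 1 FPKM in both WT libraries and *Wnt11* in both treated libraries. *Wnt10a* stood above WT by 4.20 ± 0.41 on the log2 scale (SE, limma, adjusted p = 0.000255), and *Sfrp2* differed from it by -5.16 ± 0.86 (adjusted p = 0.00216). *Dkk3* was higher than WT by 2.58 ± 0.27 (SE, limma, adjusted p = 0.000332), and *Dkk2* differed by -1.95 ± 0.65 (adjusted p = 0.0338), a difference of -1.72 to -2.17 that was not called when any 1 of the WT or ADPKD+MMPP libraries was left out. *Wnt7b* was at 6.38 and 5.93 FPKM after treatment, across the upper WT library, with a 95% interval of -0.83 to 1.13 for the log2 difference of 0.15, but after centring it was called higher than WT, by 1.36. *Wnt9a* lay above both WT libraries, with an interval of -0.45 to 1.76, and was not called. Its difference of 0.65 was called when 1 or both ADPKD libraries were left out of the fit, and it rose to 1.29 after quantile normalization and 2.63 after centring, both called higher. Centring also made *Tcf7* (1.37) and *Fzd5* (0.59) called higher than WT and *Fzd2* (-1.68) lower. Proximal tubule, macrophage and fibroblast marker sums, of values as deposited, were also higher in these libraries than in WT. Against ADPKD, however, 4 of 10 macrophage markers lay above and 5 below. Of 13 fibroblast and mural cell markers, 6 lay above ADPKD and 7 below. *Lyz2* alone was at 568 and 565 FPKM of a macrophage sum of 1171 to 1223. The podocyte sum was 87.3 to 89.8 FPKM, the endothelial sum 341 to 371 and the intercalated sum 280 to 288, all below WT, and *Pdgfrb* was at 1.05 and 0.837. The part of these cells in the differences was not tested.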

How the data were processed

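PolyA RNA of kidney cells enriched with DBA was sequenced in 6 libraries of 3 groups. The authors aligned reads to GRCm38 (mm10) with HISAT2 2.1.0, counted mapped reads with featureCounts 1.6.0 and deposited FPKM. The annotation and the FPKM step are not given in the sources used here. FPKM are not counts, so limma 3.58.1 in R 4.3.3 replaced the DESeq2 test of the authors. It was run on log2(FPKM + 1) for the 14862 genes that reached 1 FPKM in 2 or more libraries, in a single model of the 6 libraries, with Benjamini-Hochberg adjustment over all of them. Fold changes on this scale understate those of low genes. The step was tested on simulated data.

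Of the 55367 symbols, 53186 and all 43 of the set matched GENCODE vM21, which gave exon lengths, transcripts and, from steps in FPKM times length, reads; a value within 0.02 of a whole number counted as whole (98.1% to 98.9% of low values). Promoters come from RefSeq (GRCm38.p6). Protein sequences were not used here.

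Named with values were the tested genes of the set that were called in any comparison, and of the other lists the 3 highest and 3 lowest changes at an adjusted p under 0.05 in each of 2 comparisons, plus *Myc*, *Ccnd1*, *Nkd1* and *Lgr5*. Genes below the filter, those not called and neighbouring Wnt pairs were named after their values were seen. The members, the lists and the tests were chosen with earlier results of these data known. Alternatives covered the pseudocount, filter, scaling, trend, groups in the fit, thresholds, a replicate block, centring by transcript structure and leaving out each library.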

Additional observations from a re-analysis of the deposited data

How the results depend on the processing

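In ADPKD against WT, no called gene of the set changed direction under an alternative, and 10 of 14 calls held in all 18. At a fold change of at least 2, 3 genes of the set were lower, and 3 pathway genes were higher and 8 lower. Of all 14862 genes, 1016 were higher and 935 lower at that fold change. Leaving out a library in turn gave a median log2 fold change of the set of 0.16 to 0.42, the highest without ADPKD replicate 1. Where this leaves 1 library in a group, it is assumed to vary like the other groups.

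In ADPKD+MMPP against ADPKD, the median log2 fold change of the set was 0.29, and 0.011 with no filter, 0.10 with a common sum, 0.55 with TMM factors, 0.70 after quantile normalization, 0.065 after centring by transcript structure and 0.20 to 0.55 with a library left out, with 0.50 without ADPKD replicate 1 and 0.55 without ADPKD+MMPP replicate 2. Calls in the set were 5 lower after quantile normalization and 6 higher and 4 lower after centring, and pathway calls 7 higher at a fold change of at least 2 and 18 lower after centring. Over all genes, 4577 of 14862 were lower after quantile normalization, and 2801 were higher at a fold change of at least 2. After centring, 4191 of 12375 genes were higher and 3029 lower. The median log2 change of these 12375 genes was 0.15, above the 0.065 of the set. After centring, direction turned for *Axin1* (1.04), *Axin2* (0.56), *Fzd2* (-0.25), *Fzd8* (-0.56), *Sfrp5* (-0.89), *Wnt2* (-0.027), *Wnt4* (-0.15), *Wnt5b* (0.45), *Wnt9a* (0.44) and *Wnt9b* (-0.37).

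In ADPKD+MMPP against WT, the median was 0.32, and 0.14 with no filter, -0.039 with a common sum, 0.60 with TMM factors, 0.72 after quantile normalization and 0.30 to 0.54 with a library left out, the highest without ADPKD+MMPP replicate 2. Genes of the set called lower were 4 after quantile normalization, 5 at a fold change of at least 2 and 5 after centring, and 22 pathway genes were higher after quantile normalization. Over all 14862 genes, 5482 were higher and 4885 lower after quantile normalization, and 5202 were lower at a fold change of at least 2. After centring, 3314 of 12375 genes were lower. After centring, direction turned for *Axin1* (1.39), *Axin2* (0.73), *Fzd3* (-0.10), *Fzd4* (-0.40), *Fzd7* (-0.19), *Fzd8* (-0.47), *Sfrp1* (-0.14), *Sfrp5* (-1.24), *Tcf7l2* (0.099) and *Wnt5b* (1.27). The cause was not tested.

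Deviations of same-numbered libraries correlated by 0.129, -0.00796 and 0.0137 for WT with ADPKD, WT with ADPKD+MMPP and ADPKD with ADPKD+MMPP. The labels do not say whether samples were paired, and these correlations, with 2 libraries per group, cannot settle it. With the replicate number as a block, 10 genes of the set were higher in ADPKD than in WT, *Wnt2* and *Wnt4* being added, and 6 lower, and the counts of the other comparisons were 12 higher and 8 lower each. Of all 14862 genes, 2151 were then higher and 1904 lower in ADPKD than in WT. ADPKD+MMPP had 4165 higher and 6430 lower against ADPKD, and 4502 and 6536 against WT. Of the tested genes, *Wnt11*, *Wnt5b*, *Fzd6* and *Axin2* rested on few reads in the treated libraries, at 6 to 46.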

Other observations

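Planar polarity genes outside the set, named here after their values were seen, moved in both directions in ADPKD. *Celsr1*, an atypical cadherin at the core of the polarity machinery, was at 2.41 and 2.54 FPKM in WT and 8.41 and 6.48 in ADPKD, and its relative *Celsr2* at 7.57 and 7.74 in WT and 15.7 and 14.8 in ADPKD. *Prickle2*, a cytoplasmic core component, was at 15.3 and 14.0 FPKM in WT and 7.76 and 7.52 in ADPKD. *Daam2*, a formin that acts downstream of Dishevelled, was at 19.1 and 23.4 FPKM in WT and 5.51 and 2.90 in ADPKD. None of these overlapped between the groups, and the log2 fold changes were 1.27, 0.91, -0.86 and -2.14 (limma, adjusted p = 0.00504, 0.00546, 0.00641 and 0.00533). *Lrp5*, a co-receptor of the β-catenin branch, was at 21.7 and 20.5 FPKM in WT and 8.93 and 8.34 in ADPKD, while *Lrp6*, its close relative, was at 13.3 and 14.0 and at 10.6 and 10.6. The fall of *Lrp5* was -1.20 (limma, adjusted p = 0.00357), and *Lrp6* was not called.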
